A study of Homo sapiens with 24 samples.

Results

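Neurons differentiated from LUHMES cells were exposed for 6 h to MPP, and their RNA was compared with that of neurons given the vehicle alone. LUHMES is one immortalised line, derived from human mesencephalon, whose precursors stop dividing and become neurons when differentiated. The comparison rests on 6 of the 24 libraries of the series, 3 with 5 µM MPP and 3 with 1% DMSO. Of 58051 genes in the count matrix, 18852 passed the expression filter and were tested. The other 18 libraries, 3 for each of 6 other toxicants, entered the same fit and served as a second set of comparisons. Rotenone at 1 µM was singled out among these 6, and the others were 5 µM MS275, 5 µM paraquat, 2 µM ziram, 1 µM 6-HD and 0.5 µM methylmercury. All 24 libraries came from the 1 line, so a response of another donor's cells was not measured. The labels describe the samples as biological triplicates. They do not say whether the replicates came from separate differentiations, so the p-values measure the spread between these samples, part of which may be technical.

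MPP is named in the labels as the methylphenylpyridinium ion, but the chemical registry number given beside that name is one that suppliers list for another compound with the same abbreviation. That other compound is methyl-piperidino-pyrazole, an antagonist of the oestrogen receptor ESR1. The registry number beside paraquat is likewise one used for a different compound, tunicamycin, an inhibitor of protein N-glycosylation that is a standard inducer of the chaperone HSPA5. HSPA5 averaged 107 CPM in the paraquat libraries and 110.2 CPM in the DMSO libraries (CPM is counts per megaread of the library total after scaling by trimmed means, TMM). That difference was not tested, and the level of 1 gene cannot identify the compound. The sources used here do not settle which compound was in the wells, so the treatment is called MPP throughout. ESR1 was close to undetected, with 14, 0 and 6 reads in the MPP libraries, against 0, 1 and 3 reads in the DMSO libraries, and it did not pass the expression filter. The oestrogen receptor gene ESR2 had 16, 12 and 6 reads in MPP, against 0, 10 and 16 in DMSO (edgeR adjusted p = 0.839). GPER1, another such gene, had 99, 117 and 78 reads in MPP, against 50, 144 and 172 in DMSO (edgeR adjusted p = 0.368). These receptor genes were looked up after the values were seen.

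As background, the methylphenylpyridinium ion enters dopaminergic neurons through the dopamine transporter SLC6A3, collects in mitochondria and inhibits complex I of the respiratory chain. Mitochondria carry their own small genome, transcribed from both strands as long precursors from which ribosomal RNAs, messenger RNAs and transfer RNAs are cut. Faults in mitochondria or in protein folding can lead to phosphorylation of the initiation factor eIF2, which lowers translation in general and favours translation of the transcription factor ATF4. ATF4 in turn drives genes of amino acid uptake and synthesis, a programme known as the integrated stress response. The unfolded protein response of the endoplasmic reticulum shares the eIF2 arm with it and adds the transcription factors ATF6 and XBP1, which drive chaperone genes.

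The libraries held 31.8, 29.3 and 20.6 megareads in MPP, against 14.3, 24.7 and 33.4 megareads in DMSO, within the range of 9.69 to 46.9 in the series. In a principal component analysis of the 6 libraries, the first component carried 65.5% of the variance and put the 3 MPP libraries at -14.3, -16.8 and -16.8, against 19.2, 15.5 and 13.2 for the 3 DMSO libraries. The second component carried 14.6% and set MPP replicate 3 apart, at -14.7, from MPP replicates 1 and 2, at 9.48 and 5.76. The labelled cell type was checked against its markers. Of 18 markers of dopaminergic neurons 14 were tested, while LMX1A, FOXA1, FOXA2 and ALDH1A1 did not pass the filter, and the vesicular transporter SLC18A2 stood at 0.158 to 1.08 CPM over the 6 libraries. All 19 pan-neuronal markers were tested, and their summed level was 9661, 9786 and 10952 CPM in MPP, against 11417, 10523 and 9879 CPM in DMSO, so the groups overlapped.

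Between MPP and DMSO 2034 of the 18852 genes differed, 10.8% of those tested, at an adjusted p under 0.05 by the edgeR quasi-likelihood test. Of these, 1088 genes (5.77%) were higher and 946 (5.02%) lower in MPP. Most changes were small. Only 91 genes (0.483%) rose and 206 (1.09%) fell at least 2-fold. In 3548 genes (18.8%) all 3 MPP libraries stood above the 3 DMSO libraries, and in 3293 (17.5%) all stood below. Log2 fold changes are given with their SE and as MPP over DMSO, and a gene is said to rise or fall where its adjusted p is under 0.05. Values with an SE and no other unit are log2 fold changes. Where leaving out 1 library ended a call, the libraries are named by group and replicate number (MPP 2) with the highest adjusted p that resulted. With the 2 mitochondrial ribosomal RNAs left out of the library totals and TMM repeated, 2019 genes were called, 1041 higher and 978 lower. These included 1987 of the 2034 (97.7%).

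**Figure D1:**
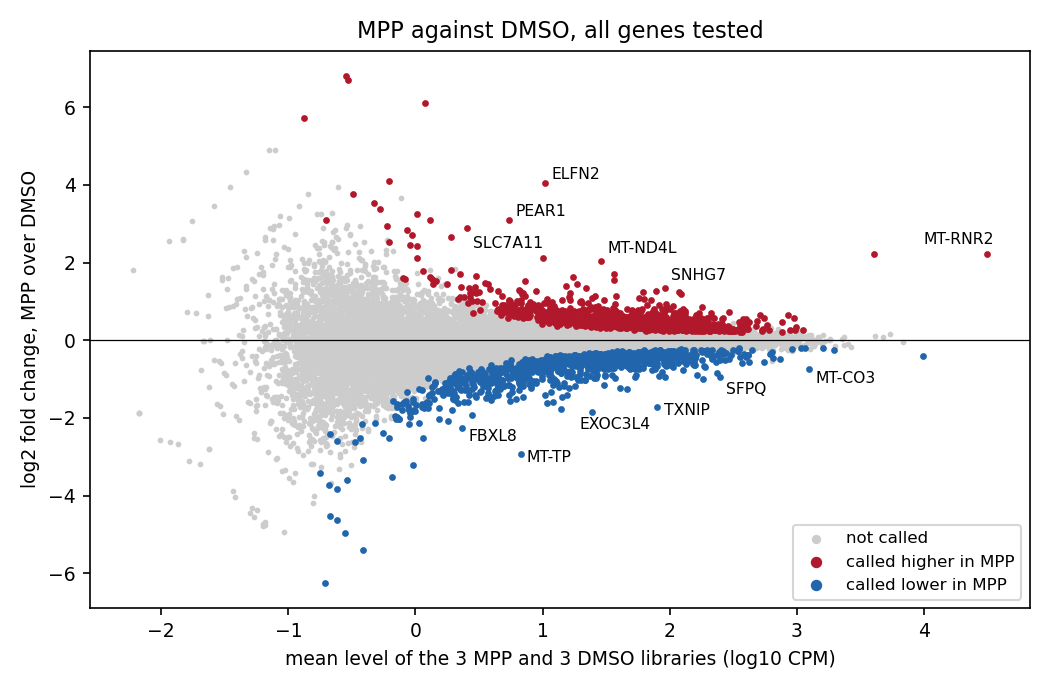
Difference against level for the tested genes; the horizontal axis is the mean of the 3 MPP and 3 DMSO libraries in log10 CPM, the vertical axis the log2 fold change of MPP over DMSO, and each point is 1 gene (red, called higher; blue, called lower; grey, not called). The 2 mitochondrial ribosomal RNAs lie alone at the top right, and ELFN2 and PEAR1 lie highest among the labelled nuclear genes.

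Of the nuclear genes that rose, ELFN2 had the smallest p (chromosome 22, 37367960 to 37427470, GRCh38). It encodes a leucine-rich repeat protein of the synapse that binds group III metabotropic glutamate receptors. Its level was 18.9, 25 and 15.3 CPM in the MPP libraries, against 0.854, 1.05 and 1.48 CPM in the DMSO libraries (log2 fold change 4.06 ± 0.27, edgeR adjusted p = 6.43e-12). PEAR1, a receptor with EGF-like repeats first described in platelets, stood at 10.5, 10.1 and 8.71 CPM in MPP, against 1.28, 0.808 and 1.33 CPM in DMSO (log2 fold change 3.10 ± 0.30, edgeR adjusted p = 2.64e-08). In both genes the lowest MPP library lay far above the highest DMSO library, and the naming rule required the groups not to overlap. ELFN2's relatives did not share the rise as a group: of 21 leucine-rich repeat organizers of synapses tested, ELFN2 itself was the 1 that rose, and 2 fell, SLITRK5 (log2 fold change -0.44 ± 0.11; call lost without MPP 2, adjusted p up to 0.0528) and SLITRK1 (-0.36 ± 0.10; lost without MPP 1, MPP 2, MPP 3, DMSO 2 or DMSO 3, adjusted p up to 0.0891). The 2 group III metabotropic receptors that could be tested were not called.

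PDE10A, a phosphodiesterase for cyclic AMP and cyclic GMP, rose at low levels, to 3.73, 4.54 and 5.28 CPM in MPP, against 0.142, 0.565 and 0.946 CPM in DMSO (log2 fold change 2.89 ± 0.63, edgeR adjusted p = 0.00251). PDK4, a kinase that switches off pyruvate dehydrogenase, rose to 2.84, 4.29 and 3.17 CPM in MPP, against 0.996, 1.29 and 0.887 CPM in DMSO (log2 fold change 1.70 ± 0.36, edgeR adjusted p = 0.00191). PRR5L, a protein bound to mTOR complex 2, reached 3.17, 2.99 and 2.69 CPM in MPP, against 0.711, 1.01 and 0.769 CPM in DMSO (log2 fold change 1.82 ± 0.47, edgeR adjusted p = 0.0102), but this call was lost without DMSO 3, adjusted p up to 0.0528. Among genes at higher levels, INHBE, which encodes the beta E subunit of activins and is an ATF4 target in liver cells, stood at 55.9, 55.9 and 51.2 CPM in MPP, against 21.1, 18 and 16.9 CPM in DMSO (log2 fold change 1.55 ± 0.14, edgeR adjusted p = 3.76e-09). PPM1K, the mitochondrial phosphatase that activates breakdown of branched-chain amino acids, stood at 95.5, 92.2 and 98.8 CPM in MPP, against 51.5, 45.6 and 42.2 CPM in DMSO (log2 fold change 1.04 ± 0.10, edgeR adjusted p = 3.75e-08). The rule that named these genes required all 3 MPP libraries to lie above the 3 DMSO libraries, as they did in 18.8% of all genes tested.

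At the other end, EXOC3L4, a relative of the exocyst subunit EXOC3, fell to 12, 9.59 and 10.3 CPM in MPP, against 35.8, 40.1 and 39.3 CPM in DMSO (log2 fold change -1.85 ± 0.14, edgeR adjusted p = 1.14e-10). The F-box protein gene FBXL8 had 1.16, 0.397 and 0.844 CPM in MPP, against 4.41, 3.39 and 3.81 CPM in DMSO (log2 fold change -2.26 ± 0.38, edgeR adjusted p = 0.000124). RIMKLB, a ligase that joins glutamate to N-acetylaspartate, held 23.6, 23.6 and 26.2 CPM in MPP, against 52.9, 61.2 and 56.8 CPM in DMSO (log2 fold change -1.22 ± 0.11, edgeR adjusted p = 9.95e-09). MIR210HG, the host transcript of the hypoxia-linked microRNA miR-210, stood at 1.42, 1.66 and 0.317 CPM in MPP, against 3.77, 3.55 and 6.09 CPM in DMSO (log2 fold change -1.93 ± 0.33, edgeR adjusted p = 0.000154). The naming rule required that the groups did not overlap, which held for 17.5% of all genes tested in this direction. A further 5 noncoding neighbours of coding genes, UFD1-AS1, CAMSAP1-DT, ZNF470-DT, EXOC3-AS1 and SGMS1-AS1, were among the 12 largest falls by the naming rule, with log2 fold changes from -2.03 to -1.53. Strand was not given for the counting, so reads of antisense genes cannot be told apart from those of their partners.

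**Figure D2:**
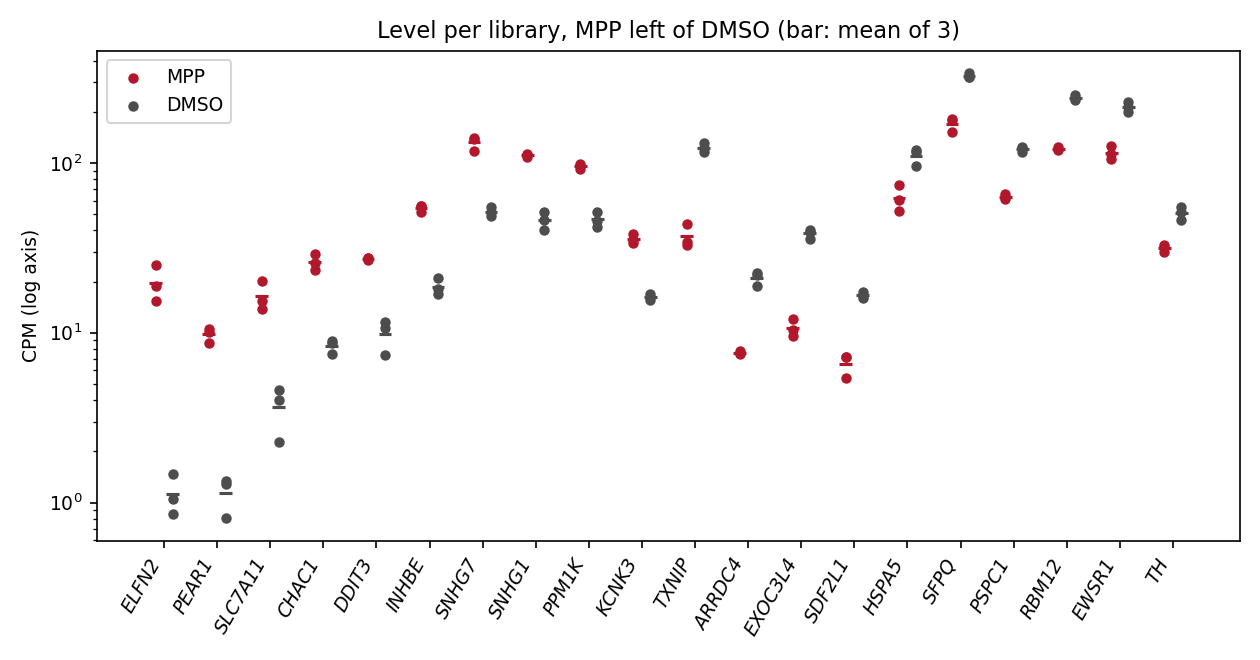
Level of 20 genes in each library, in CPM on a log axis; red points on the left of each pair are the 3 MPP libraries, grey points on the right the 3 DMSO libraries, and the short bar is the mean of 3. The absence of overlap was required of genes named by fold or p, and ELFN2 shows the widest gap.

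The ribosomal RNAs of the mitochondrial genome took a larger share of reads in MPP. These 2 RNAs took 4.69%, 4.80% and 6.91% of all reads in MPP, against 1.59%, 1.11% and 1.05% in DMSO, and between 0.815% and 1.93% in the 18 libraries of the other toxicants. The difference of 4.22 percentage points had an exact two-sided permutation p of 0.1, the smallest that 3 against 3 libraries allow. The small ribosomal RNA MT-RNR1 stood at 5806, 5749.9 and 8492 CPM in MPP, against 1734, 1255 and 1323 CPM in DMSO (log2 fold change 2.22 ± 0.14, edgeR adjusted p = 6.43e-12), and the large one, MT-RNR2, changed by 2.22 ± 0.17. MPP replicate 3, the shallowest of the MPP libraries, had the highest share. The protocol selects polyadenylated RNA and then depletes ribosomal RNA in 2 rounds, so the share reflects what passed both steps, and a part of library preparation in this difference was not tested.

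Among the 13 messenger RNAs of the mitochondrial genome, 9 rose and 3 fell, beside 5.77% and 5.02% of all genes. By log2 fold change the largest rises were those of MT-ND4L at 2.05, MT-ND1 at 1.70 and MT-ND2 at 1.34, all subunits of complex I. MT-ND5 (80.2, 75.3 and 104 CPM in MPP, against 38.1, 35.6 and 35.8 CPM in DMSO; log2 fold change 1.24 ± 0.17, edgeR adjusted p = 8.56e-06) also belongs to complex I. MT-CYB, the mitochondrial subunit of complex III, had 156, 143 and 212 CPM in MPP, against 77.7, 68.1 and 75.9 CPM in DMSO (log2 fold change 1.20 ± 0.17, edgeR adjusted p = 8.52e-06). MT-ATP8 (1.27 ± 0.29) and MT-ATP6 (1.08 ± 0.15), both of the ATP synthase, rose by similar amounts. MT-CO2 rose less, by 0.52 ± 0.14, a call lost without MPP 3 or DMSO 1, adjusted p up to 0.196. The other 8 genes that rose had log2 fold changes of 1.08 or more.

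The 3 that fell were MT-ND3 (17.8, 16.4 and 22.9 CPM in MPP, against 44.2, 43.5 and 39.5 CPM in DMSO; log2 fold change -1.16 ± 0.13, edgeR adjusted p = 5.07e-07), MT-CO3 (859, 869 and 1072 CPM in MPP, against 1562, 1563 and 1575 CPM in DMSO; log2 fold change -0.75 ± 0.11, edgeR adjusted p = 1.73e-05) and MT-CO1 (-0.47 ± 0.11; call lost without MPP 1 or MPP 2, adjusted p up to 0.0515). MT-CO3 and MT-ND3 are neighbours on the genome. MT-CO1 and MT-CO3 carried most of the reads of this class. The 13 messenger RNAs together took 0.211% to 0.266% of reads in MPP, against 0.280% to 0.299% in DMSO (exact two-sided permutation p = 0.1). The total includes the ribosomal RNAs, and their part in the lower share was not tested. In TMM-scaled CPM the sums of the 13 messenger RNAs overlapped, at 2223, 2235 and 2895 CPM in MPP, against 2844, 2894 and 2946 CPM in DMSO. MT-ND6, the one coding gene on the light strand, was not called (log2 fold change -0.46 ± 0.28, edgeR adjusted p = 0.337).

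Only 3 of the 22 mitochondrial transfer RNA genes held enough reads to be tested, and all 3, which lie on the light strand like MT-ND6, fell in MPP. MT-TP had 46, 34 and 36 reads in the MPP libraries, against 242, 212 and 334 reads in the DMSO libraries (log2 fold change -2.93 ± 0.23, edgeR adjusted p = 3e-10). MT-TY had 3, 4 and 6 reads in MPP, against 46, 35 and 18 in DMSO (log2 fold change -3.21 ± 0.68, edgeR adjusted p = 0.00176). MT-TC had 2, 0 and 5 reads in MPP, against 33, 19 and 17 in DMSO (log2 fold change -3.51 ± 0.91, edgeR adjusted p = 0.0107), a call lost without MPP 1, MPP 2 or DMSO 1, adjusted p up to 0.102. Genes that touch or overlap on the mitochondrial genome, such as MT-ND4L with MT-ND4 and MT-ATP8 with MT-ATP6, and nuclear copies of mitochondrial sequence, make the split of reads among them uncertain.

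**Figure D3:**
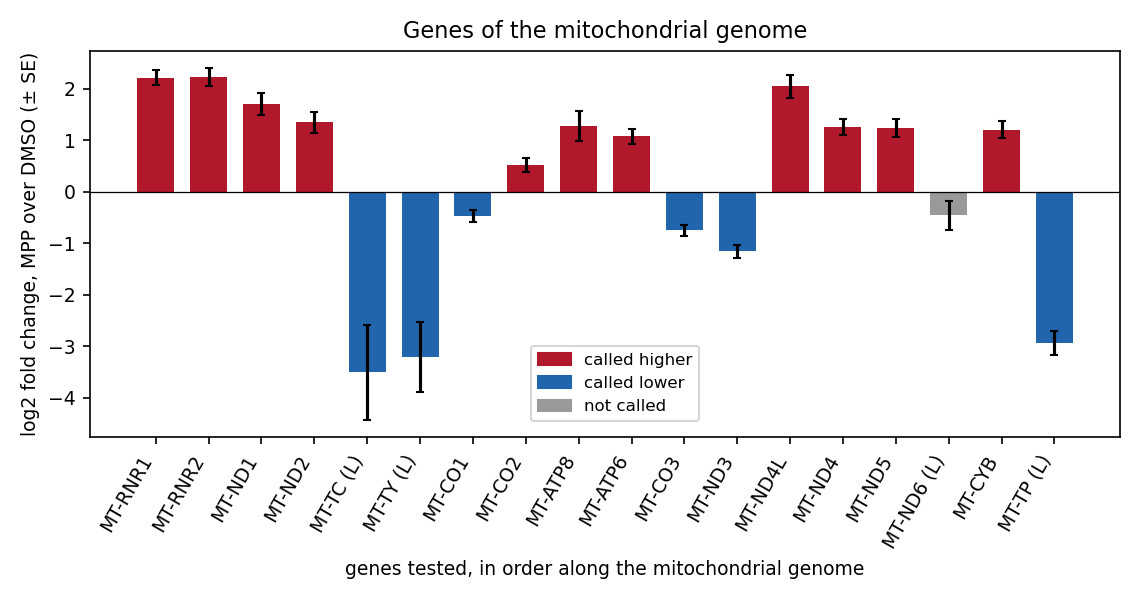
Log2 fold change of MPP over DMSO for the 18 tested genes of the mitochondrial genome in their order along it; bars are the estimates, lines the SE of the fit, and L marks genes on the light strand. The ribosomal RNAs, MT-ND1 and MT-ND4L stand highest, while MT-CO1, MT-CO3, MT-ND3 and the 3 transfer RNA genes lie below 0.

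Nuclear genes of the respiratory chain moved little. Of 37 nuclear subunits of complex I, 0 rose and 2 fell: NDUFC2 (34, 32.8 and 39.8 CPM in MPP, against 59.7, 51.4 and 53.2 CPM in DMSO; log2 fold change -0.62 ± 0.13, edgeR adjusted p = 0.0015) and NDUFA9 (-0.39 ± 0.10; lost without MPP 1 or DMSO 1, adjusted p up to 0.0708). Of 17 assembly factors of complex I, NDUFAF7 (0.58 ± 0.14) and ECSIT (0.46 ± 0.13) rose and FOXRED1 (-0.50 ± 0.09) and TIMMDC1 (-0.46 ± 0.08) fell, the ECSIT call being lost without MPP 1, MPP 2, DMSO 2 or DMSO 3, adjusted p up to 0.147. Of 40 nuclear subunits of the other complexes 1 fell, UQCR11 (-0.41 ± 0.13; lost without MPP 1, MPP 2, DMSO 1 or DMSO 2, adjusted p up to 0.245). Mitochondrial ribosomal proteins had 3 higher and 5 lower of 78, and the number lower was 8 under library totals and 2 or 3 without any 1 library other than MPP 1. Apart from the assembly factors, with 2 of 17 each way, these shares lay near or below the background of 5.77% and 5.02%.

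Of 36 genes for mitochondrial transcription and RNA processing, 2 rose and 1 fell (8.33% called, beside 10.8% of all genes). LRPPRC, which stabilises mitochondrial messenger RNAs, stood at 364, 397 and 394 CPM in MPP, against 308, 325 and 335 CPM in DMSO (log2 fold change 0.25 ± 0.07, edgeR adjusted p = 0.0193; lost without MPP 2, MPP 3, DMSO 1 or DMSO 2, adjusted p up to 0.112). The mitochondrial DNA polymerase POLG changed by 0.49 ± 0.13 (lost without MPP 1, MPP 2, DMSO 1 or DMSO 3, adjusted p up to 0.106). TRMT10C, a subunit of the enzyme that cuts the 5′ ends of mitochondrial transfer RNAs, changed by -0.31 ± 0.10 (lost without MPP 1, MPP 2, DMSO 1, DMSO 2 or DMSO 3, adjusted p up to 0.237). Of 3 coactivators of mitochondrial biogenesis on the list, PPARGC1A (12.1, 9.77 and 11.5 CPM in MPP, against 7.11, 7.59 and 7.66 CPM in DMSO; log2 fold change 0.57 ± 0.18, edgeR adjusted p = 0.0348; lost without MPP 1, MPP 3, DMSO 1, DMSO 2 or DMSO 3, adjusted p up to 0.139) and PPARGC1B (0.50 ± 0.14; lost without MPP 2, MPP 3, DMSO 1 or DMSO 2, adjusted p up to 0.115), were called higher and PPRC1 was not called (0.26 ± 0.16, edgeR adjusted p = 0.319). In the whole list of 8 biogenesis regulators 2 rose and 1 fell (37.5% called, beside 10.8% of all genes). GABPB1, a subunit of the transcription factor GABP, was the one that fell, by 0.38 on the log2 scale. NRF1, GABPA, ESRRA and ESRRG were not called. Other nuclear genes of mitochondria that rose included GRPEL2, a nucleotide exchange factor of mitochondrial HSP70, at 87.9, 94.6 and 100.3 CPM in MPP, against 58.5, 52.9 and 55.4 CPM in DMSO (log2 fold change 0.76 ± 0.09, edgeR adjusted p = 9.62e-07), and RHOT1, the GTPase that tethers mitochondria to motors, at 132, 132 and 141 CPM in MPP, against 90.0, 82.4 and 92.6 CPM in DMSO (log2 fold change 0.61 ± 0.07, edgeR adjusted p = 1.29e-06). No call of GRPEL2 or RHOT1 was lost when any 1 library was left out.

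In the integrated stress response, 7 of 17 transcription factors and effectors rose and 1 fell, with a median log2 fold change of 0.49, against 0.00 over all genes tested, of which 5.77% rose. CHAC1, which degrades glutathione, stood at 29.1, 25.8 and 23.4 CPM in MPP, against 7.54, 8.72 and 8.9 CPM in DMSO (log2 fold change 1.63 ± 0.20, edgeR adjusted p = 1.12e-06). DDIT3, the transcription factor CHOP, stood at 27.4, 26.7 and 27.6 CPM in MPP, against 7.4, 10.7 and 11.5 CPM in DMSO (log2 fold change 1.44 ± 0.18, edgeR adjusted p = 1.31e-06). The MPP libraries lay above the DMSO libraries in both genes, as in 18.8% of all genes tested. ATF3 rose by 0.91 ± 0.21 and ATF5 by 0.62 ± 0.13, both transcription factors induced by stress. ATF4 and CEBPG, named after their values were seen, rose by 0.57 ± 0.09 and 0.30 ± 0.08. SESN2, a leucine sensor of mTORC1, rose by 0.49 ± 0.15 (call lost without MPP 1, DMSO 2 or DMSO 3, adjusted p up to 0.225).

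DDIT4, an inhibitor of mTORC1 that ATF4 and hypoxia can both induce, was the one that fell, to 24.2, 23.2 and 22.3 CPM in MPP, against 35.1, 33.4 and 41.2 CPM in DMSO (log2 fold change -0.66 ± 0.17, edgeR adjusted p = 0.00857; lost without DMSO 3, adjusted p up to 0.0633). TRIB3, a pseudokinase and a standard ATF4 target, was not called, at 0.09 ± 0.14 with an edgeR adjusted p of 0.757. ASNS, asparagine synthetase, was not called either, at 0.06 ± 0.08 with an edgeR adjusted p of 0.682. Among 8 eIF2 kinases, phosphatase subunits and relay proteins, the 2 that rose were the phosphatase subunits PPP1R15A (167, 163 and 154 CPM in MPP, against 98.6, 106 and 111 CPM in DMSO; log2 fold change 0.62 ± 0.10, edgeR adjusted p = 6.7e-05) and PPP1R15B (192, 193 and 214 CPM in MPP, against 137, 139.9 and 143 CPM in DMSO; log2 fold change 0.51 ± 0.09, edgeR adjusted p = 0.000255), which bring the phosphatase to eIF2. The kinase EIF2AK1 (HRI) and DELE1, which relays mitochondrial stress to it, stood at 0.23 ± 0.08 and 0.25 ± 0.11, not called.

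Genes of amino acid supply were counted as transporters and as enzymes. Of 10 transporters under ATF4, 5 rose and 0 fell, beside 5.77% and 5.02% of all genes. The number of transporters higher was 3 under library totals and without MPP 2 or DMSO 3. SLC7A11, the cystine carrier of system xc-, had 13.8, 15.3 and 20.1 CPM in MPP, against 2.28, 4.6 and 4.02 CPM in DMSO (log2 fold change 2.12 ± 0.25, edgeR adjusted p = 8.32e-07). Its heavy chain SLC3A2 changed by 0.34 ± 0.11 (lost without MPP 1, MPP 2, DMSO 2 or DMSO 3, adjusted p up to 0.142). The glutamine carrier SLC1A5 stood at 33.1, 32.8 and 26.4 CPM in MPP, against 18.7, 18.8 and 15.6 CPM in DMSO (log2 fold change 0.81 ± 0.14, edgeR adjusted p = 0.000295), and the cationic amino acid carrier SLC7A1 changed by 0.55 ± 0.13. SLC7A5, the large neutral amino acid carrier, changed by 0.52 ± 0.16 (lost without MPP 2, MPP 3, DMSO 1 or DMSO 3, adjusted p up to 0.173). Of 16 enzymes of amino acid and one-carbon synthesis, PSAT1 (162, 161 and 156 CPM in MPP, against 123, 119.8 and 119 CPM in DMSO; log2 fold change 0.40 ± 0.08, edgeR adjusted p = 0.00108), GPT2 (0.33 ± 0.10; lost without MPP 1, MPP 2, DMSO 1, DMSO 2 or DMSO 3, adjusted p up to 0.124) and MTHFD2 (0.23 ± 0.07; lost without any 1 of the 6 libraries, adjusted p up to 0.142) rose. ALDH1L2, a mitochondrial folate enzyme, fell by 0.62 on the log2 scale (lost without MPP 2, adjusted p up to 0.0576). Of 20 cytosolic aminoacyl-tRNA synthetases, which ATF4 also drives, 0 were called. The difference between transporters, enzymes and synthetases was not tested.

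The letters TGATGNAA, a core shared by binding elements of ATF4 with its partners, were searched on both strands of the 250 bases before the start of each gene. RefSeq promoters (GRCh38.p14) were available for 11587 of the protein-coding genes tested. The letters occurred in 19 of 837 promoters of genes called higher (2.27%), in 6 of 562 of genes called lower (1.07%) and in 167 of all 11587 (1.44%). By list, they occurred in 3 of 17 promoters of factors and effectors and in 4 of 11 of enzymes. The 4 were ASNS, MTHFD1L, GOT1 and BCAT1, none of which was called. They occurred in 0 of 8 promoters of transporters and in 2 of 16 of cytosolic synthetases. Among the factors and effectors with the largest rises, CHAC1 and ATF3 held a match, shown here in capitals because both genes are direct targets of ATF4 in other human cells. The CHAC1 stretch (chr15:40953247-40953284, plus strand) holds the match in reverse complement, from 209 bases before the start, and the ATF3 stretch (chr1:212565201-212565238, plus strand) holds it from 191 bases before the start. DDIT3, ELFN2 and PEAR1 held no match in this window.
CHAC1: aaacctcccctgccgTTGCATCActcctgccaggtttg
ATF3: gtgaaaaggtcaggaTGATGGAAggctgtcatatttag

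Genes for the folding machinery of the endoplasmic reticulum moved the other way. Of 21 chaperones and foldases, 0 rose and 13 fell, with a median log2 fold change of -0.39, beside 5.02% lower and a median of 0.00 over all genes. HSPA5, the main HSP70 of this compartment (BiP), stood at 52.4, 60.2 and 74.5 CPM in MPP, against 96.4, 115 and 119 CPM in DMSO (log2 fold change -0.83 ± 0.13, edgeR adjusted p = 6.78e-05). SDF2L1, a partner of HSPA5, had 7.16, 5.41 and 7.18 CPM in MPP, against 16.4, 17.4 and 16 CPM in DMSO (log2 fold change -1.34 ± 0.16, edgeR adjusted p = 6.57e-07). DNAJC3, an HSP40 cochaperone, had 20.6, 23.4 and 20.6 CPM in MPP, against 37, 42.4 and 42.4 CPM in DMSO (log2 fold change -0.92 ± 0.11, edgeR adjusted p = 8.37e-07). All 3 MPP libraries lay below all 3 DMSO libraries in each of these 3 genes, as in 17.5% of all genes tested.

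MANF, a secreted protein that protects dopaminergic neurons in rodents, was present at 49.9, 42.7 and 48.1 CPM in MPP, against 84.3, 74 and 73.2 CPM in DMSO (log2 fold change -0.72 ± 0.11, edgeR adjusted p = 4.1e-05). The disulfide isomerase PDIA4 was present at 128, 125 and 109 CPM in MPP, against 187, 191 and 187 CPM in DMSO (log2 fold change -0.64 ± 0.10, edgeR adjusted p = 4.87e-05). CRELD2, HSP90B1 and CALR, named after their values were seen, changed by -0.61 ± 0.09, -0.39 ± 0.08 and -0.35 ± 0.09. The 21 genes summed to 3356, 3323 and 3467 CPM in MPP, against 4331, 4202 and 4019.6 CPM in DMSO. Related lists had shares called near or below the 10.8% of all genes. Of 16 genes for degradation of misfolded proteins 1 rose and 1 fell, and the one that fell was the segregase VCP (474, 469 and 412 CPM in MPP, against 706, 661 and 622 CPM in DMSO; log2 fold change -0.55 ± 0.08, edgeR adjusted p = 1.27e-05). Of 9 sensors and factors of the unfolded protein response, among them XBP1 (-0.14 ± 0.08, edgeR adjusted p = 0.312), 0 were called.

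The endoplasmic reticulum stress element, CCAAT and CCACG with 9 bases of any kind between them, is bound by ATF6 together with NF-Y. On both strands of the 250 bases it occurred in 5 of 562 promoters of genes called lower (0.89%), namely those of HSPA5, TRIM5, HSP90B1, CALR and CRELD2. It occurred in 1 of 837 promoters of genes called higher (0.119%), that of EIF2A, and in 14 of all 11587 (0.121%). Of 20 promoters of the chaperone list it occurred in 6 (30%), among them those of CANX and ERO1B, which were not called. A match is a description of the letters and not of binding. The matches of the 4 chaperone genes are shown in capitals because these genes fell in MPP. HSPA5 (chr9:125241376-125241424, minus strand) holds it from 66 bases before the start. CRELD2 (chr22:49918539-49918587, plus strand) and CALR (chr19:12938369-12938417, plus strand) hold the reverse complement, from 80 and 225 bases before. HSP90B1 (chr12:103930201-103930354, plus strand) holds a match from 194 bases before and another, in reverse complement, from 89. SDF2L1, DNAJC3, MANF, PDIA4 and HYOU1 held no match in this window.
HSPA5: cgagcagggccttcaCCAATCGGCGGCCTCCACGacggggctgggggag
CRELD2: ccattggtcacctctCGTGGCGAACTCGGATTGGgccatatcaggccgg
CALR: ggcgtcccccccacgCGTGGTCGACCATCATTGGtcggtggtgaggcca
HSP90B1: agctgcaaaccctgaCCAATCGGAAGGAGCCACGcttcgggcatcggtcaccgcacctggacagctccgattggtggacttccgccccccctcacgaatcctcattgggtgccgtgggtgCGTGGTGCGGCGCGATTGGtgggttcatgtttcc

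**Figure D4:**
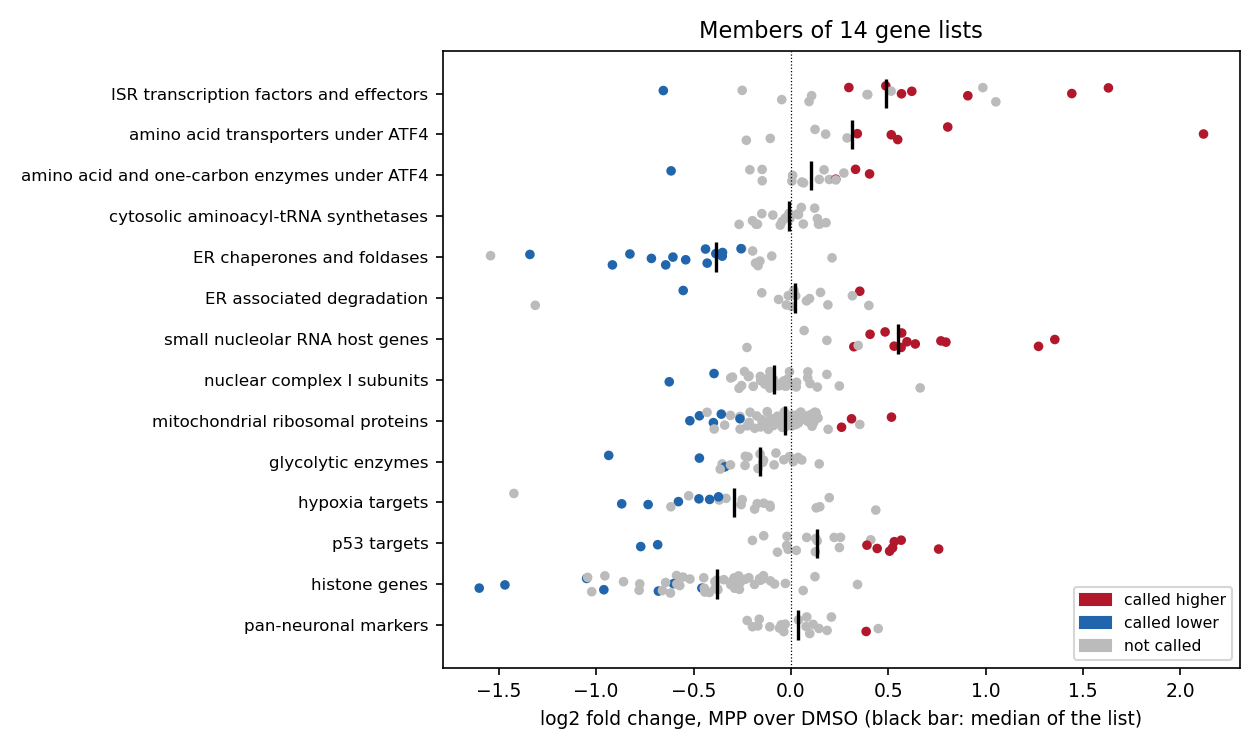
Log2 fold change of MPP over DMSO for the tested members of 14 gene lists; each point is a gene (red, called higher; blue, called lower; grey, not called), its vertical place within a list is arbitrary, and the black bar is the median of the list. Most of the chaperones and foldases of the endoplasmic reticulum (ER) lie left of 0 and most of the small nucleolar RNA host genes right of it, while most points of the nuclear complex I subunits and of the pan-neuronal markers lie near 0.

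TXNIP and ARRDC4 form another pair that fell. Both are alpha-arrestins that limit glucose uptake, and both are induced by the glucose sensor MondoA with its partner MLX. TXNIP stood at 43.9, 34.4 and 32.6 CPM in MPP, against 116, 123 and 130.1 CPM in DMSO (log2 fold change -1.73 ± 0.11, edgeR adjusted p = 2.43e-12). ARRDC4 stood at 7.82, 7.5 and 7.55 CPM in MPP, against 21.8, 18.9 and 22.5 CPM in DMSO (log2 fold change -1.47 ± 0.14, edgeR adjusted p = 2.64e-08). The MondoA gene MLXIP was not called (0.21 ± 0.12, edgeR adjusted p = 0.286) and MLX rose by 0.40 ± 0.11 (lost without MPP 1, MPP 2 or DMSO 1, adjusted p up to 0.13). The arrestin ARRDC3 rose by 0.37 ± 0.10 (lost without DMSO 1, adjusted p up to 0.0941), and ARRDC1 and ARRDC2 were not called. The carbohydrate response element, which MondoA and MLX bind, was searched on both strands as CACGNG and CACGNG with 5 bases of any kind between them. It occurred in 2 of 562 promoters of genes called lower (0.356%), those of TXNIP and P4HA1, in 0 of 837 of genes called higher, and in 14 of all 11587 (0.121%). In the TXNIP promoter (chr1:145996636-145996682, minus strand) it starts 88 bases before the start of the gene and is shown in capitals. The ARRDC4 window held no match.
TXNIP: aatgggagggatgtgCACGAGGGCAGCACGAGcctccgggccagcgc

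Glucose metabolism changed in few genes. Of 21 glycolytic enzymes 0 rose and 3 fell (14.3% called, beside 10.8% of all genes). LDHA, lactate dehydrogenase, stood at 166, 178 and 201 CPM in MPP, against 252, 224 and 279 CPM in DMSO (log2 fold change -0.47 ± 0.11, edgeR adjusted p = 0.00385). Hexokinase HK2 had 12.7, 13.8 and 7.92 CPM in MPP, against 16.8, 17 and 32 CPM in DMSO (log2 fold change -0.94 ± 0.28, edgeR adjusted p = 0.0284; lost without MPP 1, MPP 3 or DMSO 3, adjusted p up to 0.3), and PFKFB3, which makes the activator of phosphofructokinase, changed by -0.34 ± 0.11 (lost without MPP 1, MPP 2, MPP 3, DMSO 2 or DMSO 3, adjusted p up to 0.242). Of 22 hypoxia targets 0 rose and 6 fell (27.3% called, beside 10.8% of all genes). The number lower was 2 without DMSO 3 and 3 without MPP 1 or MPP 2. PDK1, the kinase of pyruvate dehydrogenase induced by hypoxia, stood at 36.7, 39.9 and 43 CPM in MPP, against 64.5, 57.4 and 76.5 CPM in DMSO (log2 fold change -0.73 ± 0.14, edgeR adjusted p = 0.000449). The glucose transporter SLC2A1 changed by -0.47 ± 0.10, P4HA1, a collagen prolyl hydroxylase, by -0.58 ± 0.16 (lost without MPP 1 or DMSO 3, adjusted p up to 0.144), and STC1 by -0.87 ± 0.28 (lost without MPP 1, MPP 2, MPP 3 or DMSO 3, adjusted p up to 0.433). PDK4 rose while PDK1 fell, so the kinases of pyruvate dehydrogenase moved in both directions.

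Host genes of small nucleolar RNAs rose in the largest proportion of any nuclear list with at least 10 genes tested. These genes carry small nucleolar RNAs in their introns, and many of their spliced transcripts are short-lived targets of nonsense-mediated decay, which depends on translation. Of 16 tested, 12 rose and 0 fell, beside 5.77% of all genes, with a median log2 fold change of 0.55. SNHG7 stood at 138, 140.4 and 118 CPM in MPP, against 48.7, 51.1 and 55 CPM in DMSO (log2 fold change 1.35 ± 0.12, edgeR adjusted p = 2.55e-09). SNHG1 stood at 112, 113 and 109 CPM in MPP, against 40.5, 45.8 and 51.2 CPM in DMSO (log2 fold change 1.27 ± 0.12, edgeR adjusted p = 9.95e-09). The coding host TAF1D had 27.7, 27.8 and 29.9 CPM in MPP, against 18.3, 15 and 16.9 CPM in DMSO (log2 fold change 0.77 ± 0.16, edgeR adjusted p = 0.00167). In these 3 genes all MPP libraries lay above all DMSO libraries, as in 18.8% of all genes tested. SNHG5 rose by 0.64 ± 0.11, SNHG12 by 0.80 ± 0.26 (lost without MPP 1, MPP 2, DMSO 1, DMSO 2 or DMSO 3, adjusted p up to 0.265) and GAS5, named after its values were seen, by 0.57 ± 0.09. SNHG14, the one member that hosts imprinted small nucleolar RNAs, stood at -0.23 ± 0.11 with an edgeR adjusted p of 0.185. Of 85 cytosolic ribosomal proteins, whose genes also host such RNAs, 0 were called.

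The lists on RNA processing that follow were drawn up after the values were seen. Their counts and the values of single members describe these data and are not an independent test of the lists. Of 11 genes of paraspeckles, nuclear bodies built on the RNA NEAT1, 0 rose and 4 fell, beside 5.77% and 5.02% of all genes. SFPQ stood at 180.1, 179 and 151 CPM in MPP, against 321, 319 and 338 CPM in DMSO (log2 fold change -0.94 ± 0.08, edgeR adjusted p = 7.23e-09). Its partner PSPC1 had 61.3, 62.5 and 65.6 CPM in MPP, against 116, 124 and 122 CPM in DMSO (log2 fold change -0.94 ± 0.09, edgeR adjusted p = 1.45e-08). EWSR1 had 126, 112 and 105 CPM in MPP, against 198, 213 and 227 CPM in DMSO (log2 fold change -0.89 ± 0.08, edgeR adjusted p = 1.51e-08), and RBM14 changed by -0.89 ± 0.10. NONO, which pairs with both SFPQ and PSPC1, was not called at 0.08 ± 0.07, and NEAT1 was not called at -0.71 ± 0.50 (edgeR adjusted p = 0.415). RBM12, an RNA-binding protein chosen by its small p and not by a list, fell to 120.0, 119.7 and 124 CPM in MPP, against 251, 241 and 234 CPM in DMSO (log2 fold change -1.0 ± 0.07, edgeR adjusted p = 2.41e-11). In SFPQ, PSPC1, EWSR1 and RBM12 the 3 MPP libraries lay below the 3 DMSO libraries, as in 17.5% of all genes tested. The naming rule required this of genes named by fold or p, RBM12 among them.

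Core spliceosome proteins had 7 higher and 0 lower of 26 (26.9%), beside 5.77% and 5.02% of all genes. The number higher was 4 under library totals and without MPP 2, DMSO 1 or DMSO 2, and 5 under TMM without mitochondrial ribosomal RNA. Among the 7 were SNRNP48, a subunit of the minor spliceosome, at 32.4, 32.2 and 34.8 CPM in MPP, against 15.9, 18 and 20.9 CPM in DMSO (log2 fold change 0.85 ± 0.13, edgeR adjusted p = 4.58e-05) and SF3B1 at 0.48 ± 0.08. SR splicing factors had 1 higher and 2 lower of 14, and SRSF6 (-0.60 ± 0.08) and SRSF4 (0.54 ± 0.11) moved in opposite directions. Heterogeneous nuclear ribonucleoproteins had 4 higher and 3 lower of 20, or 35% called beside 10.8% of all genes, but the number higher was 2 without MPP 2 and 1 under library totals or without MPP 3, DMSO 1 or DMSO 2. Translation initiation factors had 9 higher and 1 lower of 29 (34.5% called), and 5 higher under library totals. EIF5, the GTPase-activating protein for eIF2, stood at 595, 622 and 664 CPM in MPP, against 388, 392 and 417 CPM in DMSO (log2 fold change 0.65 ± 0.08, edgeR adjusted p = 7.52e-07), and EIF4B, a partner of the helicase eIF4A, changed by 0.49 ± 0.07. Factors of nonsense-mediated decay and the exon junction had 2 higher and 1 lower of 15, led by CASC3 (0.50 ± 0.08).

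Lists of death, growth signalling and actin genes had 20% to 37.5% of their tested members called, beside 10.8% of all genes, on small numbers of genes. Of 15 members of the BCL2 family, the BH3-only genes PMAIP1 (11.4, 13.5 and 12.6 CPM in MPP, against 8.04, 6.83 and 7.01 CPM in DMSO; log2 fold change 0.78 ± 0.18, edgeR adjusted p = 0.00337) and HRK (41.2, 47.3 and 43.2 CPM in MPP, against 26.9, 29.5 and 24.8 CPM in DMSO; log2 fold change 0.70 ± 0.12, edgeR adjusted p = 0.000208) rose, and BOK fell by 0.65 on the log2 scale (lost without any 1 of the 6 libraries, adjusted p up to 0.121). Of 24 p53 targets 7 rose and 2 fell, 37.5% beside 10.8% of all genes. Without MPP 2 the count was 3 higher and 1 lower, and without DMSO 1 it was 4 higher and 1 lower. CCNG1, cyclin G1, stood at 232, 236 and 237 CPM in MPP, against 168, 151 and 157 CPM in DMSO (log2 fold change 0.57 ± 0.08, edgeR adjusted p = 1.04e-05), the cyclin-dependent kinase inhibitor CDKN1A changed by 0.53 ± 0.14 (lost without MPP 2, DMSO 1 or DMSO 2, adjusted p up to 0.0669), and TP53I3 fell by 0.68 on the log2 scale. Feedback regulators of MAP kinases had 4 higher and 0 lower of 15 (26.7%), and all 4 were dual-specificity phosphatases: DUSP5 (23.4, 23.4 and 22.3 CPM in MPP, against 7.54, 10.3 and 11.4 CPM in DMSO; log2 fold change 1.22 ± 0.15, edgeR adjusted p = 8.9e-07), DUSP16 (0.76 ± 0.10), DUSP14 (0.49 ± 0.11) and DUSP1 (0.40 ± 0.09). Of 16 genes of SRF and actin 4 rose, with calponin CNN2 at 9.87, 9.91 and 8.6 CPM in MPP, against 3.42, 4.52 and 3.7 CPM in DMSO (log2 fold change 1.28 ± 0.24, edgeR adjusted p = 0.000479), FHL2 at 0.95 ± 0.12 and vinculin VCL at 0.77 ± 0.09. SRF itself changed by 0.36 ± 0.12 (lost without any 1 of the 6 libraries, adjusted p up to 0.203).

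NRF2 targets (11.1% called), enzymes of glutathione and related systems (4.76%) and heat shock factor targets (10.5%) lay near or below the 10.8% of all genes called. Of 27 NRF2 targets, the 2 that rose were SLC7A11 and SLC3A2, which also stand on the ATF4 list, and AKR1C1 fell by 0.48 on the log2 scale (lost without MPP 2, adjusted p up to 0.0784). Of 21 enzymes of glutathione, peroxiredoxins and superoxide, 1 rose and 0 fell. Of 19 heat shock factor targets HSPA6 rose and HSPA1B fell, by 0.64 on the log2 scale (lost without MPP 3 or DMSO 2, adjusted p up to 0.0698). HSPA6 had 30 reads over the 3 MPP libraries, against 3 over the 3 DMSO libraries, a ratio of 9.43 after scaling (exact 95% counting interval 2.93 to 48.3), and its call was lost without MPP 1, MPP 2, DMSO 1 or DMSO 2, adjusted p up to 0.153. Of 8 metallothioneins 2 were called (25%), both higher. The median log2 fold change of the 8 was 2.20, against 0.00 over all genes tested, and 5 of the 8 lay above 0. MT2A was not called (log2 fold change 1.80, edgeR adjusted p = 0.064). MT1M had 41 reads in MPP, against 0 in DMSO, at least 12.9-fold higher with the DMSO group set at 3 counts (lost without MPP 3, DMSO 1, DMSO 2 or DMSO 3, adjusted p up to 0.105). MT1G had 170 reads in MPP, against 2 in DMSO, a ratio of 80.2 (21.9 to 668; lost without any 1 of the 6 libraries, adjusted p up to 0.14). Counting intervals cover counting error only, and near-identical metallothionein copies can exchange reads.

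Among neuronal genes, the enzymes of dopamine synthesis TH and DDC fell. Of 13 genes for catecholamine synthesis, storage and receptors 0 rose and 3 fell, beside 5.77% and 5.02% of all genes. Of the 14 markers of dopaminergic neurons tested, 0 rose and 2 fell, TH and DDC, with a median log2 fold change of -0.05. TH, tyrosine hydroxylase, the rate-limiting enzyme, stood at 32.1, 32.8 and 30.0 CPM in MPP, against 55.2, 51.4 and 45.9 CPM in DMSO (log2 fold change -0.68 ± 0.13, edgeR adjusted p = 0.00087). DDC, the decarboxylase that makes dopamine from L-DOPA, was low throughout, at 1.19, 0.793 and 1.21 CPM in MPP, against 2.56, 3.39 and 2.39 CPM in DMSO (log2 fold change -1.39 ± 0.34, edgeR adjusted p = 0.00629; lost without MPP 2 or DMSO 2, adjusted p up to 0.0561). QDPR, which regenerates the cofactor of TH, changed by -0.33 ± 0.11 (lost without any 1 of the 6 libraries, adjusted p up to 0.165). Fewer cells of a type and less RNA per cell cannot be told apart in these bulk libraries. The dopamine transporter SLC6A3, the route by which the methylphenylpyridinium ion enters, was present at 839.6, 798 and 698 CPM in MPP, against 697, 578 and 632 CPM in DMSO (log2 fold change 0.29 ± 0.11, edgeR adjusted p = 0.0977), and its change was not called. The 4 transporters tested that handle this ion included 0 called.

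Of 62 potassium and HCN channel genes 5 rose (8.06%) and 0 fell, beside 5.77% and 5.02% of all genes. The number higher was 2 without MPP 2 and 3 without MPP 1, DMSO 1 or DMSO 3. KCNK3, a background channel of the tandem-pore family that sets the resting potential, stood at 35.1, 37.9 and 33.9 CPM in MPP, against 15.5, 16.8 and 16.2 CPM in DMSO (log2 fold change 1.14 ± 0.12, edgeR adjusted p = 2.07e-07). KCNJ11, the pore of the ATP-sensitive channel, stood at 4.36, 4.25 and 4.01 CPM in MPP, against 1.71, 1.98 and 1.71 CPM in DMSO (log2 fold change 1.22 ± 0.29, edgeR adjusted p = 0.00524). KCNJ5 (0.81 ± 0.25; lost without MPP 2, MPP 3, DMSO 1 or DMSO 2, adjusted p up to 0.177), KCNJ4 (0.72 ± 0.21; lost without MPP 1, MPP 2, DMSO 1 or DMSO 3, adjusted p up to 0.119) and KCNH2 (0.47 ± 0.13; lost without MPP 1, MPP 2 or DMSO 3, adjusted p up to 0.0822) were also higher. Sodium channel alpha subunits moved both ways, with SCN8A at 91.5, 102 and 98.8 CPM in MPP, against 59.6, 55.6 and 65.7 CPM in DMSO (log2 fold change 0.69 ± 0.12, edgeR adjusted p = 0.000154), SCN2A at 11.3, 12.8 and 12.3 CPM in MPP, against 17.1, 18.6 and 18.4 CPM in DMSO (log2 fold change -0.58 ± 0.14, edgeR adjusted p = 0.00472) and SCN3A at -0.45 ± 0.14 (lost without MPP 1, MPP 2, DMSO 1, DMSO 2 or DMSO 3, adjusted p up to 0.179). Of 48 ionotropic receptor subunits 1 rose and 3 fell. Those that fell were P2RX6 (-1.12 ± 0.22), CHRNB2 (-0.36 ± 0.10; lost without MPP 1, MPP 3, DMSO 1 or DMSO 2, adjusted p up to 0.117) and P2RX3 (-0.30 ± 0.09; lost without any 1 of the 6 libraries, adjusted p up to 0.128).

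Axon guidance genes had 5 higher and 2 lower of 65, 10.8% called, the same share as over all genes. The number higher was 3 without MPP 1, MPP 2 or DMSO 1, and the number lower was 0 without MPP 2, MPP 3, DMSO 1 or DMSO 2. EPHA2, an ephrin receptor kinase, stood at 23.1, 25.7 and 18.1 CPM in MPP, against 8.47, 7.71 and 9.4 CPM in DMSO (log2 fold change 1.39 ± 0.19, edgeR adjusted p = 8.27e-06). UNC5B, a netrin receptor, had 7.76, 8.58 and 6.44 CPM in MPP, against 4.06, 4.0 and 4.08 CPM in DMSO (log2 fold change 0.91 ± 0.20, edgeR adjusted p = 0.0027). In both genes all MPP libraries lay above all DMSO libraries, as in 18.8% of all genes tested. BDNF, a growth factor of neurons, rose at low levels, to 4.19, 2.81 and 4.49 CPM in MPP, against 1.42, 1.45 and 1.6 CPM in DMSO (log2 fold change 1.35 ± 0.35, edgeR adjusted p = 0.0099), while the neurotrophin receptor NGFR fell, to 113, 119 and 109.6 CPM in MPP, against 166, 175 and 156 CPM in DMSO (log2 fold change -0.54 ± 0.11, edgeR adjusted p = 0.00144). Proneural transcription factors, a list drawn up after the values were seen, had 4 higher and 1 lower of 14 (35.7% called). NEUROD1 (141, 142 and 134 CPM in MPP, against 80.7, 84.7 and 99.8 CPM in DMSO; log2 fold change 0.65 ± 0.11, edgeR adjusted p = 0.000138) and NHLH1 (0.58 ± 0.10) were among the higher, and POU3F2 fell by 0.35 on the log2 scale (lost without MPP 1, MPP 2, DMSO 1 or DMSO 3, adjusted p up to 0.102). Among 18 genes of familial parkinsonism 1 rose and 1 fell. The gene that rose was DNAJC13, by 0.35 ± 0.11 (lost without any 1 of the 6 libraries, adjusted p up to 0.155).

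Histone genes and long noncoding genes leaned lower. Of 55 histone genes tested 0 rose and 7 fell (12.7%), beside 5.02% of all genes that fell, with a median log2 fold change of -0.38. The number lower was 4 without MPP 1, DMSO 1 or DMSO 3, and the median was -0.24 without MPP 1 and -0.23 without DMSO 1. H2BC26 had 3.66, 4.51 and 2.96 CPM in MPP, against 10.4, 11.2 and 9.49 CPM in DMSO (log2 fold change -1.47 ± 0.22, edgeR adjusted p = 3.96e-05), and H3C6 had 15.3, 18.7 and 17.4 CPM in MPP, against 33.5, 33.7 and 32.8 CPM in DMSO (log2 fold change -0.96 ± 0.12, edgeR adjusted p = 1.12e-06). Most histone messenger RNAs lack a poly(A) tail, so this protocol sees a part of them, and the paralogs can share reads. Of 2931 long noncoding genes 38 rose (1.30%) and 206 fell (7.03%), with a median of -0.31, against 1034 (7.17%) and 700 (4.85%) of 14431 protein-coding genes, with a median of 0.03. Of the 38, 10 were small nucleolar RNA host genes, and without host genes the count was 28 higher and 206 lower of 2917. The protein-coding genes tested were also split into 5 equal groups by the length of genome they span. The share called higher was 4.09% in the group of shortest genes and 9.04% in that of the longest, and the share called lower was 7.14% in the shortest and 3.43% in the longest. Split by exon length, 4.02% of the shortest and 10.1% of the longest were higher, and 4.68% and 4.19% lower. Split by DMSO level, 1.52% of the lowest and 9.01% of the highest group were higher, and 0.658% and 5.86% lower. Which of these properties carries the difference was not tested. Among protein-coding genes the median span was 46.8 kb for those called higher, 21.6 kb for those called lower and 33.6 kb for all tested.

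Markers of other cell types were read for the whole lists. Summed astrocyte markers stood at 45.5, 49 and 46.4 CPM in MPP, against 41.3, 40.0 and 43.8 CPM in DMSO, and 1 of 6 rose, the glutamate transporter SLC1A3 (10.4, 11.2 and 8.02 CPM in MPP, against 3.27, 4.16 and 5.06 CPM in DMSO; log2 fold change 1.22 ± 0.24, edgeR adjusted p = 0.000699), while GFAP did not pass the filter. Summed fibroblast and pericyte markers stood at 72.6, 76.6 and 70.1 CPM in MPP, against 46.9, 41.8 and 45.7 CPM in DMSO. Neither sum overlapped between the groups. PDGFRB carried nearly all of the fibroblast and pericyte sum (70.9, 74.3 and 68.3 CPM in MPP, against 44.5, 40.3 and 44.2 CPM in DMSO; log2 fold change 0.73 ± 0.14, edgeR adjusted p = 0.000746). DCN did not pass the filter and COL1A1 stood at 0.767 to 1.98 CPM in the 6 libraries. Markers of oligodendrocytes, microglia, endothelium and cycling cells had 0 calls among 5, 2, 4 and 8 tested. Of 7 neural precursor markers, HES1 fell by 1.30 on the log2 scale (lost without MPP 2 or DMSO 3, adjusted p up to 0.119) and VIM rose by 0.34 ± 0.10 (lost without MPP 3, DMSO 2 or DMSO 3, adjusted p up to 0.123). The part of other cells in the results was not tested.

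The 3 MPP libraries were next set directly against the 3 rotenone libraries, a contrast in which the DMSO libraries cancel. Rotenone is a textbook inhibitor of complex I, and its dose was 1 µM against 5 µM of MPP. The contrast called 1270 genes, 6.74% of those tested, of which 695 (3.69%) were higher and 575 (3.05%) lower in MPP. It leans on single libraries and on the fit: without rotenone replicate 1 it called 2177 genes, without MPP replicate 2 it called 522, and with the 6 libraries of the 2 groups fitted alone it called 159. The list counts given for this contrast were not repeated under these settings. The mitochondrial ribosomal RNA MT-RNR1 stood at 6683 ± 1567 CPM in MPP and 1396 ± 178 CPM in rotenone (SD, n = 3 each; log2 difference 2.26 ± 0.14, edgeR adjusted p = 4.13e-12). Of the 13 mitochondrial messenger RNAs 9 were higher and 3 lower in MPP than in rotenone. ELFN2 stood at 19.7 ± 4.89 CPM in MPP and 5.25 ± 0.728 CPM in rotenone (1.93 ± 0.24, edgeR adjusted p = 2.42e-06).

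The chaperones of the endoplasmic reticulum differed from rotenone in 16 of 21 genes, all lower in MPP, beside 3.05% of all genes. HSPA5 stood at 62.4 ± 11.2 CPM in MPP and 121 ± 15.9 CPM in rotenone (-0.96 ± 0.13, edgeR adjusted p = 1.68e-05). MANF stood at 46.9 ± 3.74 CPM in MPP and 103 ± 8.93 CPM in rotenone (-1.13 ± 0.11, edgeR adjusted p = 6.34e-08). Genes under ATF4 called higher in MPP than in rotenone were 9 of 17 factors and effectors, 8 of 16 enzymes and 4 of 10 transporters. The share over all genes was 3.69%, and 1 transporter was lower. Against DMSO the numbers higher were 7, 3 and 5, with 1, 1 and 0 lower. CHAC1 stood at 26.1 ± 2.85 CPM in MPP and 6.39 ± 1.63 CPM in rotenone (2.08 ± 0.21, edgeR adjusted p = 1.15e-07), and PSAT1 at 159.6 ± 3.33 CPM in MPP and 86 ± 5.78 CPM in rotenone (0.89 ± 0.08, edgeR adjusted p = 1.72e-08). In both genes the rotenone mean also lay below the DMSO libraries given above. HRK was lower in MPP, at 43.9 ± 3.11 CPM in MPP and 119 ± 4.33 CPM in rotenone (-1.44 ± 0.12, edgeR adjusted p = 1.8e-09). DUSP16 was likewise lower in MPP, at 74.8 ± 1.9 CPM in MPP and 113 ± 11.3 CPM in rotenone (-0.60 ± 0.10, edgeR adjusted p = 0.000219).

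TXNIP was lower in MPP, at 37 ± 6.07 CPM in MPP and 65.3 ± 2.83 CPM in rotenone (-0.82 ± 0.11, edgeR adjusted p = 5.89e-06). Of 11 tubulins 9 were higher in MPP than in rotenone, beside 3.69% of all genes, with a median log2 difference of 0.88 (TUBA1A 1.28 ± 0.08, edgeR adjusted p = 1.63e-12). Against DMSO, 0 of these 11 tubulins rose and 2 fell, with a median log2 fold change of -0.20. Those that fell were TUBA1A and TUBA1B, the TUBA1B call being lost without any 1 of the 6 libraries, adjusted p up to 0.15. For several genes named above no difference from rotenone was called. EPHA2 had a log2 difference of 0.01 ± 0.18, edgeR adjusted p = 0.983, KCNJ11 of 0.04 ± 0.28, edgeR adjusted p = 0.958, and PDE10A of 0.32 ± 0.56, edgeR adjusted p = 0.787. Of 22 hypoxia targets 0 were called in either direction. A difference that was not called does not show that the levels were alike.

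Against the mean of the 6 other toxicants, MPP differed in 4511 genes (23.9%), 2694 higher (14.3%) and 1817 lower (9.64%). That contrast averages compounds of different kinds and doses. The mitochondrial messenger RNAs again had 9 higher and 3 lower, and MT-RNR2 differed by 2.31 ± 0.11, edgeR adjusted p = 8.16e-16. Chaperones of the endoplasmic reticulum had 1 higher and 18 lower of 21, and HSPA5 differed by -1.13 ± 0.11, edgeR adjusted p = 7.17e-09. Small nucleolar RNA host genes had 11 higher and 1 lower of 16, with SNHG7 at 1.27 ± 0.08, edgeR adjusted p = 7.76e-13. Core spliceosome proteins had 12 higher and 0 lower of 26, and paraspeckle genes 0 higher and 6 lower of 11. Both of these lists were drawn up after the values were seen. ELFN2 differed by 2.65 ± 0.15, edgeR adjusted p = 5.06e-14, PPM1K by 1.30 ± 0.07, edgeR adjusted p = 5.06e-14, and TXNIP by -1.58 ± 0.09, edgeR adjusted p = 5.8e-14. ATF3 (0.32 ± 0.15, edgeR adjusted p = 0.124) and SLC7A5 (-0.02 ± 0.12, edgeR adjusted p = 0.923) did not differ from this mean at the threshold.

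Leaving mitochondrial ribosomal RNA out of the library totals mattered where libraries were scaled by totals and little where they were scaled by TMM. Under TMM the log2 fold changes of the named genes moved by -0.009 to -0.0029 when it was left out, and 47 calls were lost and 32 gained. Under library totals 592 genes were higher and 1564 lower, and the median over all genes was -0.09. With mitochondrial ribosomal RNA left out of the totals, the counts were 883 higher and 1106 lower, and the median was -0.03. Size factors by medians of ratios (RLE) gave 1025 higher and 994 lower. The share of calls that were higher was thus 53.5% under TMM, 51.6% under TMM without mitochondrial ribosomal RNA, 50.8% under RLE, 44.4% under totals without it and 27.5% under totals. Of the 232 named genes called, 0 changed direction under these 4 alternatives, and the numbers whose call was lost were 3, 3, 12 and 34, in the order TMM without it, RLE, totals without it and totals. Chaperones of the endoplasmic reticulum had 0 higher under every alternative and between 10 and 16 lower, and small nucleolar RNA host genes had between 9 and 13 higher, with 0 lower except under the fit of the 2 groups alone, which called 1 lower.

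**Figure D5:**
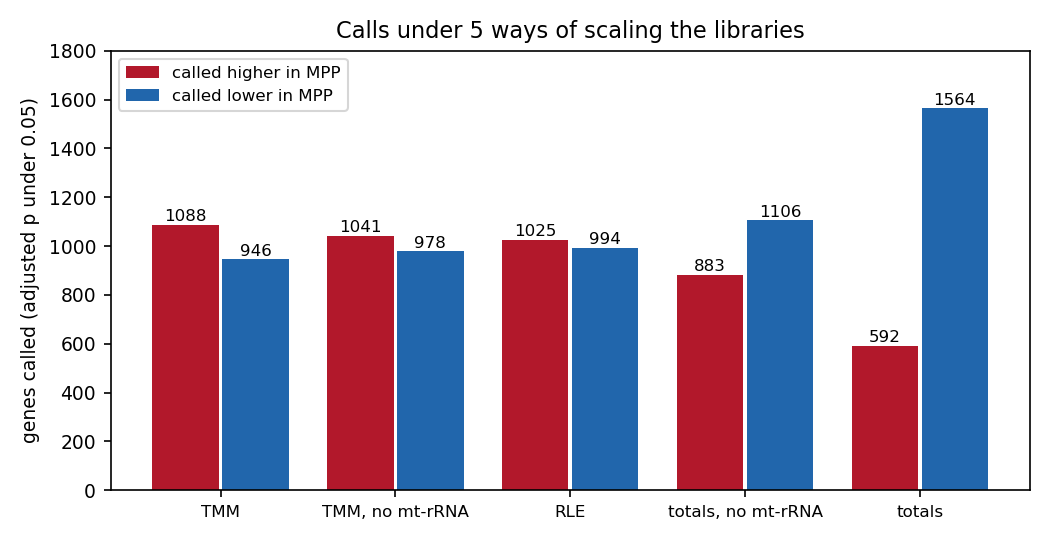
Genes called higher (red) and lower (blue) in MPP than in DMSO under 5 ways of scaling the libraries; the vertical axis is the number of genes with an adjusted p under 0.05. The split was 1088 higher and 946 lower under TMM, against 592 higher and 1564 lower under library totals, and lay between these when mitochondrial ribosomal RNA was left out of the totals.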

How the data were processed

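Per the labels' protocols, polyadenylated RNA was selected, then depleted of ribosomal RNA in 2 rounds, and read on a HiSeq machine. Per the submitters' processing notes, STAR, HTSeq, DESeq and GRCh38 were used; their versions, the annotation and the strand setting were not given in the sources used here. Raw counts per gene were deposited for each library, and 0 columns lacked a sample. The authors' normalized matrix was not used here.

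The counts were fitted with edgeR 4.0.16 in R 4.3.3, using TMM scaling, the default expression filter and 1 coefficient for each of 8 groups over 24 libraries (16 residual degrees of freedom). Quasi-likelihood F tests were adjusted by Benjamini-Hochberg over 18852 genes at 0.05. MPP was contrasted with DMSO, with rotenone and with the mean of 6 toxicants. The procedure was tested on simulated data. Alternatives were DESeq2 1.42.0, limma 3.58.1 (voom), other scalings, no filter, the 2 groups alone, a replicate block and leaving out each library. GENCODE gave coordinates for 57447 genes, and 56948 matched the name table. Promoter searches, figures and summaries used matplotlib 3.10.9, pandas 2.3.3, scipy 1.17.1, numpy 2.4.6 and Python 3.11.15.

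Named were up to 12 genes each way by fold change and 8 by p among genes called, at 2 CPM or more in the higher group, whose libraries did not overlap between groups. Clone names and pseudogenes were left out. Added were up to 5 called members of each of 68 lists by fold change, or up to 3 members by p where fewer were called, all members of lists of 8 or fewer, and the mitochondrial genome. The comparison, lists and rule were chosen with earlier results of these data known, and 9 further lists after the values were seen. Lists were described by counts and medians, without a set test. The values of a few genes counted in the lists are not reported here.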

Additional observations from a re-analysis of the deposited data

How the results depend on the processing

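MPP against DMSO called 2034 genes. The 6 libraries fitted alone called 3983, and leaving out 1 library called between 1142 (without MPP 2) and 1430 (without MPP 3). MPP against rotenone called 1270 genes, 159 with the 2 groups alone, and between 522 (without MPP 2) and 2177 (without rotenone 1). MPP against the 6 other toxicants called 4511, and between 2776 (without MPP 2) and 4998 (without replicate 3 of the toxicants). Other settings stayed within 1.5 times: DESeq2 called 2646, 1770 and 4903 genes in these 3 comparisons, limma voom 2356, 1190 and 4914, and no filter 1917, 1270 and 4414. Under library totals the higher share in the last 2 comparisons was 26.4% and 30.5%, against 54.7% and 59.7% under TMM. None of the 232 named calls reversed in any of these settings. Without 1 library, 45 to 73 of them were lost. The labels number replicates in each group. Correlations of same-numbered MPP and DMSO deviations were -0.00993, 0.0846 and 0.0884, all under 0.1, so the numbers were not taken as pairs. With a replicate block 1860, 1045 and 4247 genes were called, and 15 named calls were lost. Genes below about 1 CPM in both groups had few reads, and small changes there were not detectable at this depth. The cause of the differences between settings was not tested.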
